A study of Mus musculus with 6 samples.

Results

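The collagen genes of the mouse were examined in EDL (extensor digitorum longus), a hindlimb muscle of the fast-twitch type. A gene was taken as a collagen gene when its symbol was Col, a number, the letter a and a number, as in Col1a1. The rule found 44 genes among the 24411 genes of the table. Of these, 40 had enough counts to be tested, among 12892 genes tested. RNA was sequenced from 3 mAktDKO mice and 3 control floxed mice, all of the C57BL/6J strain and 50 weeks old. The study's methods give males as the default where no sex is named. The mAktDKO mice carried floxed Akt1 and Akt2 alleles together with Cre recombinase knocked in behind the Mlc1f (myosin light-chain) promoter, which is active in muscle fibres. The control mice carried the same floxed Akt1 and Akt2 alleles, and the floxed alleles were therefore shared by all 6 mice. The comparison of mAktDKO with control floxed mice asked how the loss of both kinases, which carry insulin signals, was accompanied by changes in muscle RNA, here in the genes of the extracellular matrix.

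A collagen molecule is a triple helix of 3 chains, each encoded by a gene of its own. Fibrillar collagens (types I, II, III, V, XI, XXIV and XXVII) form the fibres that bear tension in tendon and in the connective tissue sheaths of muscle, type IV collagen forms the network of the basement membrane around each fibre and vessel, and FACIT collagens (fibril-associated collagens with interrupted triple helices) bind to the surface of fibrils. The other collagens include type VI, which links the basement membrane to the matrix of muscle, anchoring, transmembrane and network-forming types. In muscle, fibroblasts and fibro-adipogenic progenitors make most fibrillar collagen, so a whole muscle reports on cells in which the Mlc1f promoter is not expected to be active. In such bulk samples, more cells of a type and more RNA per cell cannot be told apart.

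Values of single genes are given as CPM, the counts scaled to a common library total by the TMM method of edgeR. Total counts per mouse were between 13738795 and 15445523, and 3 counts, the level taken as the floor, lay at 0.180 to 0.227 CPM, which covers counting error only. The targeted gene Akt2 had 51.3, 49.1 and 52.7 CPM in mAktDKO against 172, 133 and 143 CPM in control mice (log2 fold change -1.55, standard error 0.11, adjusted p = 0.000923 by edgeR's quasi-likelihood test, and -1.43 without control mouse 2). Akt1 had 58.9, 56.8 and 51.4 CPM in mAktDKO against 66.4, 65.5 and 66.5 CPM in control mice (log2 fold change -0.25, standard error 0.080, adjusted p = 0.11 by the same test, and -0.25 without control mouse 2). One library stood apart. Control mouse 2 (the control columns carry the numbers 2 to 4) had the lowest level of the 6 mice in 28.8% of all genes tested and the highest in 29.0%, and results are therefore given with and without this mouse.

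Collagen RNA took up a larger share of all counts in the mAktDKO mice than in the control mice. The 44 genes together had 3.92%, 3.52% and 3.66% of the counts in mAktDKO mice 1, 2 and 3, and 1.20%, 2.62% and 3.06% in control mice 2, 3 and 4. The groups did not overlap, and control mouse 2 lay far below the other 5 mice. Most of this was type I collagen, with 3.04%, 2.59% and 3.04% of all counts in the mAktDKO mice and 0.876%, 1.92% and 2.28% in the control mice. Type I thus made up between 73.0% and 83.1% of the collagen counts of a mouse. These shares are given as a description, with no test, and are of counts without TMM scaling. The TMM factors were 1.07, 1.09 and 0.99 in the mAktDKO mice and 0.93, 0.97 and 0.96 in the control mice. After that scaling Col1a1 overlapped between the groups, with 14402 CPM in mAktDKO mouse 2 against 14935 CPM in control mouse 4.

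Gene by gene, 35 of the 40 tested collagen genes were higher in mAktDKO on average and 5 were lower, where 52.5% of all genes tested were higher. The median log2 fold change of the 40 genes was 0.24, and that of all genes 0.017. Leaving out 1 mouse in turn moved the median of the 40 to between 0.043 (without control mouse 2) and 0.50 (without control mouse 4). However, 0 of the 40 were called at an adjusted p under 0.01 (edgeR's quasi-likelihood test, where 0.0233% of all genes were called) and 0 at an adjusted p under 0.05 (1.18% of all genes). DESeq2 also called 0 of them at 0.01, and 1.95% of all genes. At an unadjusted p under 0.05, 4 collagen genes were higher, namely Col1a2, Col6a1, Col8a1 and Col11a2, and 1 was lower, Col7a1, against 11.4% and 13.1% of all genes. The groups did not overlap in 2 genes that were higher (Col1a2 and Col6a1) and in 1 that was lower (Col7a1), against 14.6% and 16.6% of all genes. These shares are near or below the background of all genes.

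Control mouse 2 had the lowest level of all 6 mice in 31 of the 40 collagen genes (77.5%), against 28.8% of all genes tested. These were all 11 fibrillar genes, all 6 type IV genes, 3 FACIT genes and 11 of the other types. With this mouse left out, 21 of these 40 genes were higher in mAktDKO and 19 lower, and their median log2 fold change was 0.043, where the median of all genes was 0.017 and 52.8% of all genes were higher. With library totals in place of TMM scaling 31 of the 40 were higher, where the median of all genes was 0.14. Col10a1 and Col9a3 also reached the filter in the fit of the 5 mice, but only through control mice 3 and 4, in which they were high, so they are left out of the counts that follow. Of the 40, only Col2a1 was called in this fit, lower in mAktDKO, at an adjusted p under 0.01 (0.0609% of 13138 genes tested) as well as under 0.05 (1.10% of genes), by edgeR's quasi-likelihood test. At an unadjusted p under 0.05, 2 of the 40 were higher (9.05% of all genes) and 1 was lower (10.2%). The groups, now 3 mice against 2, did not overlap in 4 genes that were higher, namely Col1a2, Col6a1, Col19a1 and Col20a1 (19.2% of all genes), and in 2 of the 40 that were lower, Col2a1 and Col7a1 (19.5%).

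**Figure D1:**
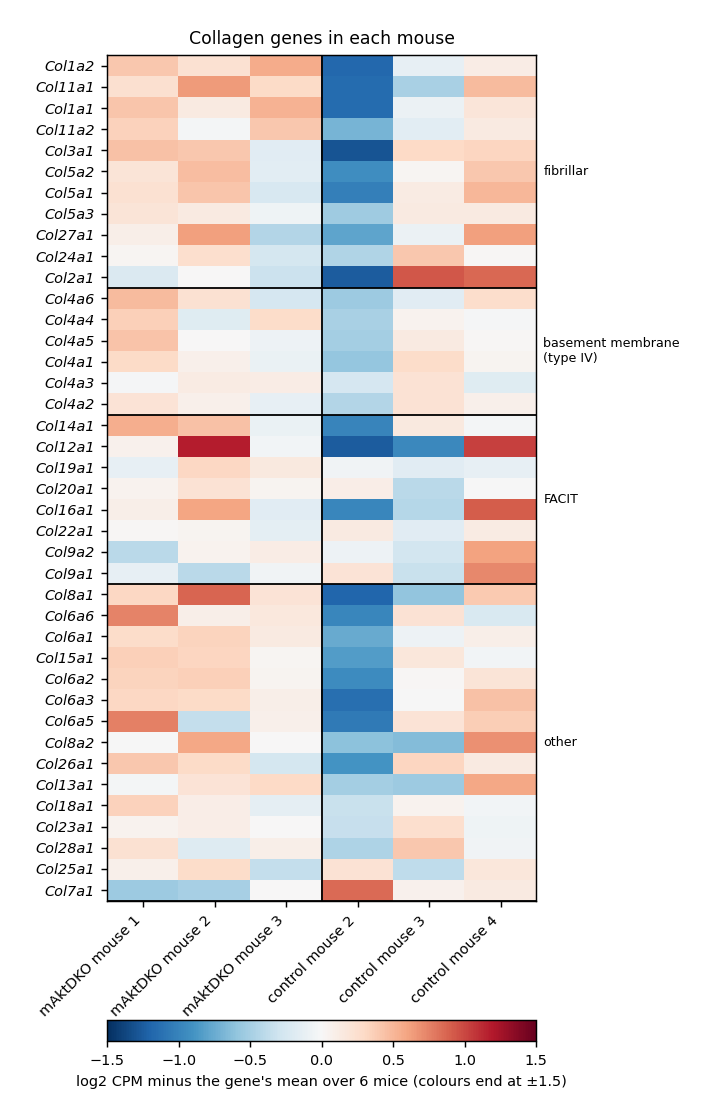
Each cell gives the log2 CPM of a tested collagen gene in a mouse minus the mean of that gene over the 6 mice, with genes grouped by class (colours end at 1.5 in either direction). Control mouse 2 is the lowest mouse in 31 of the 40 genes, while mAktDKO mouse 2 and control mouse 4 share a high Col12a1.

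In each class more genes were higher than lower with all 6 mice, and the genes were more evenly divided once control mouse 2 was left out. Among fibrillar genes, 10 of 11 were higher in mAktDKO with a median of 0.26 on the log2 scale, and 4 of 11 without control mouse 2, with a median of -0.039. All 6 type IV genes were higher with a median of 0.19, and 4 of 6 without that mouse, with a median of 0.051. Of the 8 FACIT genes tested, 5 were higher with a median of 0.18, and 4 without that mouse, with a median of 0.078. Of the 15 other types tested, 14 were higher with a median of 0.28, and 9 without that mouse, with a median of 0.059. In all, 14 genes changed sign when control mouse 2 was left out, with TMM scaling. These were Col3a1, Col5a1, Col5a2, Col5a3, Col24a1 and Col27a1 of the fibrillar class, Col4a1 and Col4a2 of type IV, the FACIT gene Col16a1, and Col6a3, Col6a5, Col23a1, Col26a1 and Col28a1 of the other types. With library totals in place of TMM and without that mouse, Col3a1, Col4a1, Col4a2, Col6a3 and Col6a5 did not change sign, with log2 fold changes of 0.036 to 0.12, below the 0.14 that was the median of all genes in that fit.

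The mean log2 CPM of the fibrillar genes shows which mice set these values. It was 8.07, 8.15 and 7.86 in the mAktDKO mice, 6.90 in control mouse 2, and 7.94 and 8.19 in control mice 3 and 4. The highest mouse of all was therefore a control, and control mice 3 and 4 lay within or next to the range of the mAktDKO mice. For type IV the same mean was 5.03, 4.79 and 4.71 in the mAktDKO mice and 4.27, 4.86 and 4.77 in the control mice, so that control mouse 2 again lay lowest but by less.

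**Figure D2:**
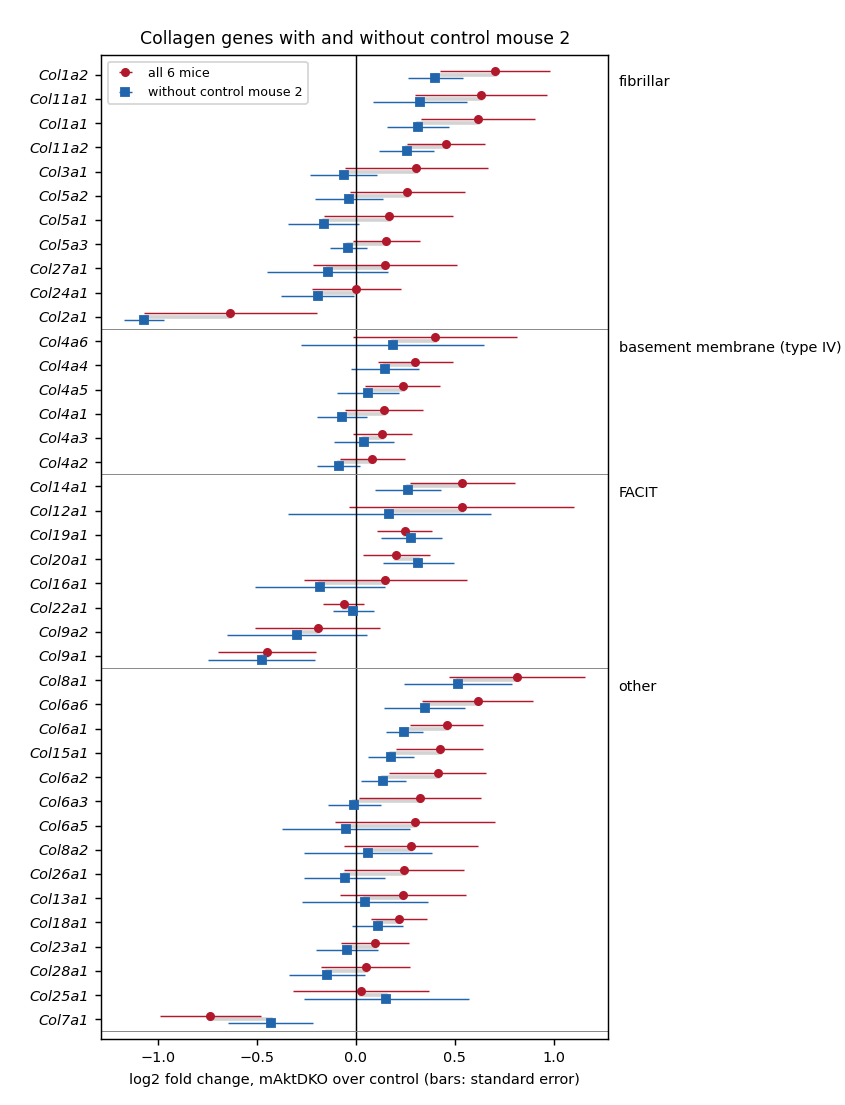
Log2 fold change of mAktDKO over control for each of the 40 tested collagen genes, with all 6 mice (red circles) and without control mouse 2 (blue squares), bars giving the standard error and grey lines joining both values of a gene. With all mice 35 genes lie to the right of 0, and without control mouse 2 there are 21, with Col2a1 at -1.07 the farthest to the left.

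Type I collagen, the main protein of tendon and scar, was the most abundant collagen RNA. Col1a1, the gene of its alpha 1 chain (mm10 chromosome 11, 94936224 to 94953042), had 17588, 14402 and 18884 CPM in mAktDKO against 5899, 12346 and 14935 CPM in control mice 2, 3 and 4. Control mouse 4 lay above mAktDKO mouse 2, so the groups overlapped, with means of 16958 ± 2307 CPM (SD, n = 3) and 11060 ± 4653 CPM (SD, n = 3). The log2 fold change was 0.62 (standard error 0.29, edgeR adjusted p = 0.22), and 0.31 without control mouse 2 (standard error 0.16, edgeR adjusted p = 0.31).

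Col1a2, the gene of the alpha 2 chain of type I (chromosome 6, 4504814 to 4541544), had 10711, 9447 and 11897 CPM in mAktDKO against 3562, 7439 and 8730 CPM in control mice. Here every mAktDKO mouse was above every control mouse. Control mice 3 and 4 had on average 2.27-fold the level of control mouse 2, while the mAktDKO mean was 1.62-fold the mean of all controls and 1.32-fold that of control mice 3 and 4. The log2 fold change was 0.70 (standard error 0.28, unadjusted p = 0.033, edgeR adjusted p = 0.17), and 0.40 without control mouse 2 (standard error 0.14, edgeR adjusted p = 0.17). A level per length of the principal transcript put Col1a1 at 2860 CPM per kb and Col1a2 at 1998 CPM per kb in mAktDKO, with 1865 and 1230 CPM per kb in the control mice. On this scale Col3a1 followed, with 485 and 393 CPM per kb, and then Col4a1, with 125 and 114 CPM per kb.

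Col3a1 encodes type III collagen, the fine fibres of the sheaths around muscle fibres (chromosome 1, 45311538 to 45349706). It had 3070, 3015 and 2017 CPM in mAktDKO against 928, 2795 and 2834 CPM in control mice. Control mouse 2 lay far below the rest, and mAktDKO mouse 3 was lower than control mice 3 and 4. The log2 fold change of 0.31 (standard error 0.36, edgeR adjusted p = 0.62) went to -0.06 without control mouse 2 (standard error 0.17, edgeR adjusted p = 0.87), one of the 3 largest moves among the genes that changed sign. Col5a1, whose type V chain is built into type I fibrils and limits their diameter, had 364, 416 and 262 CPM in mAktDKO against 152, 338 and 438 CPM in control mice. The groups overlapped, with control mouse 2 the lowest and control mouse 4 the highest of the 6 mice, and the log2 fold change of 0.17 (standard error 0.33) went to -0.16 without control mouse 2 (standard error 0.18).

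Col11a1 and Col11a2 encode type XI chains, which serve as the core of thin fibrils. Col11a2 had 160, 123 and 167 CPM in mAktDKO against 77.3, 113 and 138 CPM in control mice, with a log2 fold change of 0.46 (standard error 0.20, unadjusted p = 0.045, edgeR adjusted p = 0.19). mAktDKO mouse 2 lay below control mouse 4, so the groups overlapped, and the value was 0.26 without control mouse 2 (standard error 0.14, edgeR adjusted p = 0.34). The remaining fibrillar genes other than Col2a1 (Col5a2, Col5a3, Col11a1, Col24a1 and Col27a1) had log2 fold changes between 0.00 and 0.63 with all mice and between -0.19 and 0.32 without control mouse 2.

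**Figure D3:**
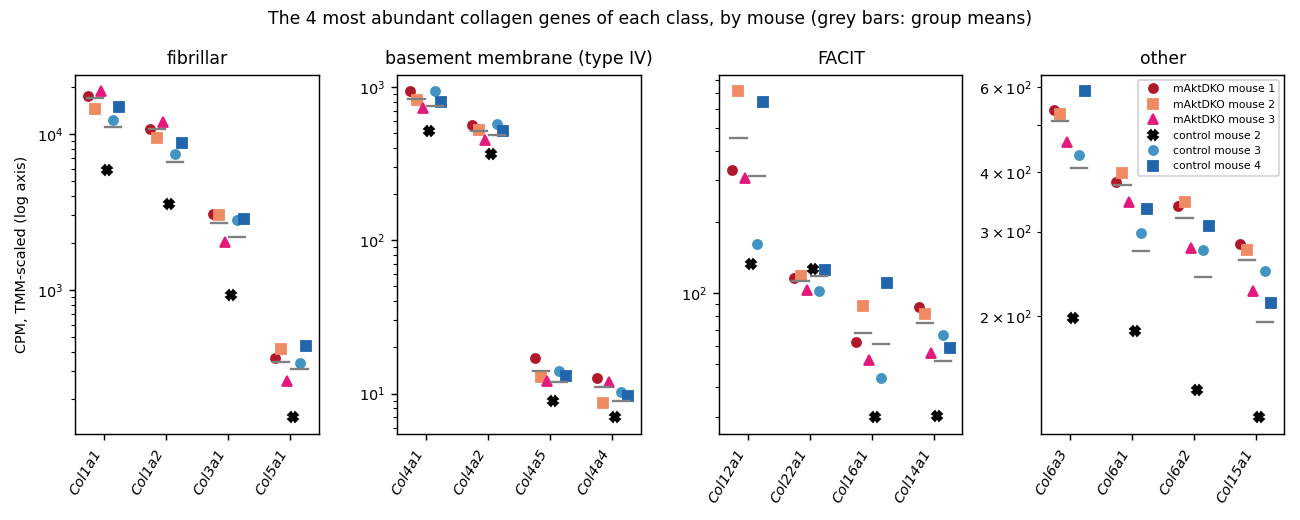
TMM-scaled CPM (log axis) of the 4 most abundant genes of each class in each mouse, with grey bars at the group means. Control mouse 2 (black cross) lies lowest for all of them but Col22a1, and for Col1a2 and Col6a1 every mAktDKO mouse lies above every control mouse.

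The start regions of 4 members are printed to show which promoter motifs they hold. Of the 44 genes, 35 had an entry in the RefSeq promoter table (GRCm38.p6). Col1a1, Col2a1, Col4a3, Col5a2, Col9a3, Col12a1, Col14a1, Col22a1 and Col26a1 had none. The 150 bases upstream of the start are given 5′ to 3′ on the strand of the gene for Col3a1 and Col5a1, both of which changed sign without control mouse 2 under TMM scaling, for Col8a1, the gene with the largest log2 fold change, and for Col7a1, the one with the lowest. They lie at chr1:45311388-45311537 on the plus strand, chr2:27886275-27886424 on the plus strand, chr16:57754738-57754887 on the minus strand and chr9:108953436-108953585 on the plus strand, in that order. Capitals mark matches of the TATA box, spelled TATAAA, of the GC box, spelled GGGCGG, and of the Smad core, spelled CAGACA, each read on both strands, so that the reverse complements of these letters are also in capitals.
Col3a1: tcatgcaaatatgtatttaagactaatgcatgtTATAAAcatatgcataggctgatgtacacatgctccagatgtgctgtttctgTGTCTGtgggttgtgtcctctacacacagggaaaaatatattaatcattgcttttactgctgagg
Col5a1: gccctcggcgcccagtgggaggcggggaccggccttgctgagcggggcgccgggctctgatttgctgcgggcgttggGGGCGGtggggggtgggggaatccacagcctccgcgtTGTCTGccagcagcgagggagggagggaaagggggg
Col8a1: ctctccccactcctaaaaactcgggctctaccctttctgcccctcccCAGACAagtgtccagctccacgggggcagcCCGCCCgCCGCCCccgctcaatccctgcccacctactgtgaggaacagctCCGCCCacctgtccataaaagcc
Col7a1: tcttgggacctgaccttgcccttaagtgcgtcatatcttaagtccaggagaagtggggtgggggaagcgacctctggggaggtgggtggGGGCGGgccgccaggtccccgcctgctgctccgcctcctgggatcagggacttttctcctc

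In these windows Col3a1 has a TATAAA match and no GGGCGG match, Col8a1 has 3 matches of GGGCGG on the strand opposite to the gene, and Col7a1 has 1 on the strand of the gene. Over the 250 bases upstream of the start, GGGCGG (the GC box) was found on either strand in 21 of the 35 collagen genes (60%). The share over 32851 promoters of all genes was 32.7%. A collagen gene counted when any of its promoters held the letters, while the share of all was counted promoter by promoter. A gene with several promoters thus had more chances to count, and the paired shares given here are not of the same unit. CCAAT was found in 13 (37.1%, against 33.8%), TATAAA in 5 (14.3%, against 12.4%) and CAGACA, the core to which Smad proteins bind, in 9 (25.7%, against 17.1%). GTAAACA, the core of FoxO sites, whose factors Akt holds inactive, was found in 1 collagen gene, Col6a1 (2.86%, against 3.17%). Such a match is a description of the letters and not of a bound site.

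The log2 fold changes of the type IV genes of the basement membrane lay between 0.08 and 0.40 with all mice, and between -0.09 and 0.19 without control mouse 2. Col4a1 and Col4a2, which together form the type IV network found in all tissues, lie head to head on chromosome 8 (11198423 to 11312826 on the minus strand, and 11312805 to 11449287 on the plus strand), and the sources used here do not state whether reads were counted by strand where they overlap. Col4a1 had 943, 820 and 723 CPM in mAktDKO against 518, 938 and 801 CPM in control mice. Col4a2 had 567, 520 and 453 CPM in mAktDKO against 363, 572 and 518 CPM in control mice. In both genes control mouse 2 was the lowest, and control mouse 3 was close to mAktDKO mouse 1. Their log2 fold changes were 0.14 (standard error 0.20, edgeR adjusted p = 0.69) and 0.08 (standard error 0.16, edgeR adjusted p = 0.78), and -0.07 (standard error 0.12) and -0.09 (standard error 0.11) without control mouse 2.

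The minor type IV chains are known from the basement membranes of kidney, lung and nerve. Col4a5 had 17.2, 12.9 and 12.1 CPM in mAktDKO against 8.95, 14.0 and 12.9 CPM in control mice. Col4a4 had 12.6, 8.63 and 11.9 CPM in mAktDKO against 6.99, 10.2 and 9.68 CPM in control mice. The groups overlapped in both, and log2 fold changes of 0.24 and 0.30 (edgeR adjusted p = 0.46 and 0.34) went to 0.06 and 0.15 without control mouse 2. Col4a3 and Col4a6 had 0.13 and 0.40, and 0.04 and 0.19 without that mouse, with Col4a6 below 1.1 CPM in each mouse.

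FACIT collagens did not move as a block. Col12a1, whose product lies on type I fibrils in tendon and muscle sheaths, had 332, 717 and 307 CPM in mAktDKO against 133, 161 and 642 CPM in control mice. One mouse of each genotype, mAktDKO mouse 2 and control mouse 4, had about the same high level, and the spread within each group exceeded the difference between them (log2 fold change 0.53, standard error 0.57, edgeR adjusted p = 0.58). It ranged from 0.034 without mAktDKO mouse 2 to 1.62 without control mouse 4 (edgeR adjusted p = 0.98 and 0.050), and was 0.17 without control mouse 2. With mAktDKO mouse 2 and control mouse 4 both left out, a choice made after their values were seen, it was 1.12 (edgeR adjusted p = 0.083). Col16a1, expressed near cells of cartilage and skin, had 62.3, 88.5 and 52.0 CPM in mAktDKO against 29.9, 43.6 and 110 CPM in control mice, high in the same pair of mice. The log2 fold change of Col16a1 was 0.15 (standard error 0.41), and -0.18 without control mouse 2 (standard error 0.33).

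Col22a1, which marks the junction of muscle and tendon, had 116, 119 and 104 CPM in mAktDKO against 126, 102 and 125 CPM in control mice. It was the steadiest of the abundant collagens, and control mouse 2 had the highest level rather than the lowest (log2 fold change -0.06, standard error 0.10, edgeR adjusted p = 0.74, and -0.01 without control mouse 2). Col14a1, a partner of type I fibrils, had 87.8, 81.4 and 56.2 CPM in mAktDKO against 30.2, 66.4 and 58.8 CPM in control mice. The groups overlapped, with a log2 fold change of 0.54 (standard error 0.27, edgeR adjusted p = 0.24) and of 0.26 without control mouse 2. Col19a1 and Col20a1, both below 12 CPM, had log2 fold changes of 0.25 and 0.20, and 0.28 and 0.31 without control mouse 2.

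Type VI collagen forms beaded filaments next to the basement membrane, and loss of its chains causes muscle disease. Col6a1 (chromosome 10, 76708792 to 76726168) had 381, 397 and 347 CPM in mAktDKO against 187, 298 and 334 CPM in control mice. Every mAktDKO mouse was above every control mouse, by a narrow margin to control mouse 4, with means of 375 ± 25.9 CPM (SD, n = 3) and 273 ± 77.0 CPM (SD, n = 3). The log2 fold change was 0.46 (standard error 0.19, unadjusted p = 0.036, edgeR adjusted p = 0.17), and 0.24 without control mouse 2 (standard error 0.095, edgeR adjusted p = 0.20).

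The partner chains were less separated. Col6a2 had 339, 346 and 277 CPM in mAktDKO against 140, 274 and 308 CPM in control mice, with a log2 fold change of 0.41 (standard error 0.25, edgeR adjusted p = 0.32) and of 0.14 without control mouse 2. Col6a3 had 538, 527 and 463 CPM in mAktDKO against 198, 433 and 590 CPM in control mice. Control mouse 4 was the highest of all and control mouse 2 the lowest, and the log2 fold change went from 0.32 (standard error 0.31, edgeR adjusted p = 0.54) to -0.01 (standard error 0.13). Col6a5 and Col6a6 are close relatives, and their estimated counts were not whole, which shows that reads were divided between genes, so their levels are uncertain. Col6a5 had 4.82, 2.16 and 2.95 CPM in mAktDKO against 1.26, 3.21 and 3.63 CPM in control mice, and its log2 fold change went from 0.30 to -0.05 without control mouse 2. Col6a6 had 0.61 and 0.35.

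Among the remaining types, Col8a1 had the largest log2 fold change and Col7a1 the lowest. Col8a1 encodes a short-chain collagen of vessel walls and of the membrane beneath endothelium (chromosome 16, 57624258 to 57754737). It had 61.8, 91.2 and 57.5 CPM in mAktDKO against 21.7, 33.0 and 65.3 CPM in control mice. Control mouse 4 lay within the mAktDKO group, and the log2 fold change was 0.81 (standard error 0.35, unadjusted p = 0.043, edgeR adjusted p = 0.19) and 0.51 without control mouse 2 (standard error 0.27, edgeR adjusted p = 0.33). Without control mouse 4 it was 1.36 (edgeR adjusted p = 0.038).

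Col7a1, the gene of the anchoring fibrils that fasten the epidermis to the dermis (chromosome 9, 108953586 to 108984875), had 3.42, 3.53 and 5.07 CPM in mAktDKO against 9.16, 5.25 and 5.52 CPM in control mice. Every mAktDKO mouse was below every control mouse, and control mouse 2 was the highest, the opposite of its place in most collagen genes. The log2 fold change was -0.73 (standard error 0.26, unadjusted p = 0.019, edgeR adjusted p = 0.13), and -0.43 without control mouse 2 (standard error 0.21, edgeR adjusted p = 0.30). Col15a1, a multiplexin (a basement membrane collagen cut to release a fragment) found around muscle fibres and capillaries, had 283, 275 and 226 CPM in mAktDKO against 123, 248 and 213 CPM in control mice. Control mouse 3 lay above mAktDKO mouse 3, with a log2 fold change of 0.42 (standard error 0.22, edgeR adjusted p = 0.27) and of 0.18 without control mouse 2. Its relative Col18a1 had 0.22 and 0.11. Col8a2, Col13a1, Col23a1, Col25a1, Col26a1 and Col28a1 had log2 fold changes between 0.02 and 0.28.

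Of the collagens known from cartilage, Col2a1, Col9a3 and Col10a1 were lower in every mAktDKO mouse than in control mice 3 and 4, while in none of the 3 genes was every mAktDKO mouse below control mouse 2. Without that mouse 19.5% of all genes were lower with no overlap. The type XI genes Col11a1 and Col11a2, also known from cartilage, lay in the other direction, with log2 fold changes of 0.63 and 0.46, and of 0.32 and 0.26 without control mouse 2. Col2a1, the gene of the main collagen of cartilage (chromosome 15, 97975602 to 98004695), had 41.7, 48.5 and 38.7 CPM in mAktDKO against 20.3, 92.2 and 88.0 CPM in control mice. Control mice 3 and 4 had on average 4.44-fold the level of control mouse 2, which was the lowest of the 6 mice, so that the mAktDKO mice lay between it and the other controls. With all mice the log2 fold change was -0.63 (standard error 0.44, edgeR adjusted p = 0.39). Without control mouse 2 Col2a1 fell by 1.07 on the log2 scale (standard error 0.10, adjusted p = 0.0035, edgeR's quasi-likelihood test), lower in 3 of 3 mAktDKO mice than in both controls kept. With library totals in place of TMM scaling it fell by 0.95 there and missed the threshold (edgeR adjusted p = 0.017).

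Col9a3, a chain of the type IX collagen that coats type II fibrils, and Col10a1, which is made by hypertrophic cartilage, were too low to be tested with all mice. Col10a1 had 0, 3 and 0 counts in mAktDKO against 2, 29 and 13 counts in control mice. Col9a3 had 5, 8 and 3 counts in mAktDKO against 3, 22 and 19 counts in control mice. In both genes control mouse 2 was at the level of the mAktDKO mice, and control mice 3 and 4 were above it. Without control mouse 2 the edgeR adjusted p was 0.047 for Col10a1 and 0.061 for Col9a3 (log2 fold change -2.14, standard error 0.45), past the threshold of 0.01 in neither, and the fold of Col10a1 rests on counts at or below the floor in all 3 mAktDKO mice. Both passed the filter only with control mouse 2 left out, through the 2 controls in which they are high.

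The other type IX chains overlapped between the groups with and without control mouse 2. Col9a1 had 6.53, 5.39 and 6.86 CPM in mAktDKO against 8.25, 5.62 and 11.8 CPM in control mice. Control mouse 3 lay within the mAktDKO group, with a log2 fold change of -0.45 (standard error 0.25, edgeR adjusted p = 0.29) and of -0.48 without control mouse 2. Without control mouse 4 it was -0.15. Col9a2 lay at or below 2.65 CPM, with -0.19, and -0.30 without that mouse. The other genes below the filter, Col6a4 and Col17a1, had at most 4 and 8 counts in any mouse.

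Markers of cartilage and bone were given beside these genes to show what moved with them. Of 6 such markers (Acan, Comp, Sox9, Sp7, Ibsp and Bglap), 4 were tested, with 2 higher and 2 lower and 0 called by edgeR or DESeq2. Their summed level was 69.1 to 100 CPM in the mAktDKO mice and 57.0 to 126 CPM in the control mice, and Sp7, Ibsp and Bglap were at 0 counts in at least 1 mouse. Ibsp, a protein of bone matrix, had 33, 280 and 0 counts in mAktDKO against 11, 28 and 407 counts in control mice. It was high in mAktDKO mouse 2 and control mouse 4, the same mice in which Col12a1 and Col16a1 were high. Mmp13, a collagenase of bone and cartilage, had 36, 792 and 2 counts in mAktDKO against 5, 5 and 715 counts in control mice. The part of any such tissue in the collagen values was not tested.

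**Figure D4:**
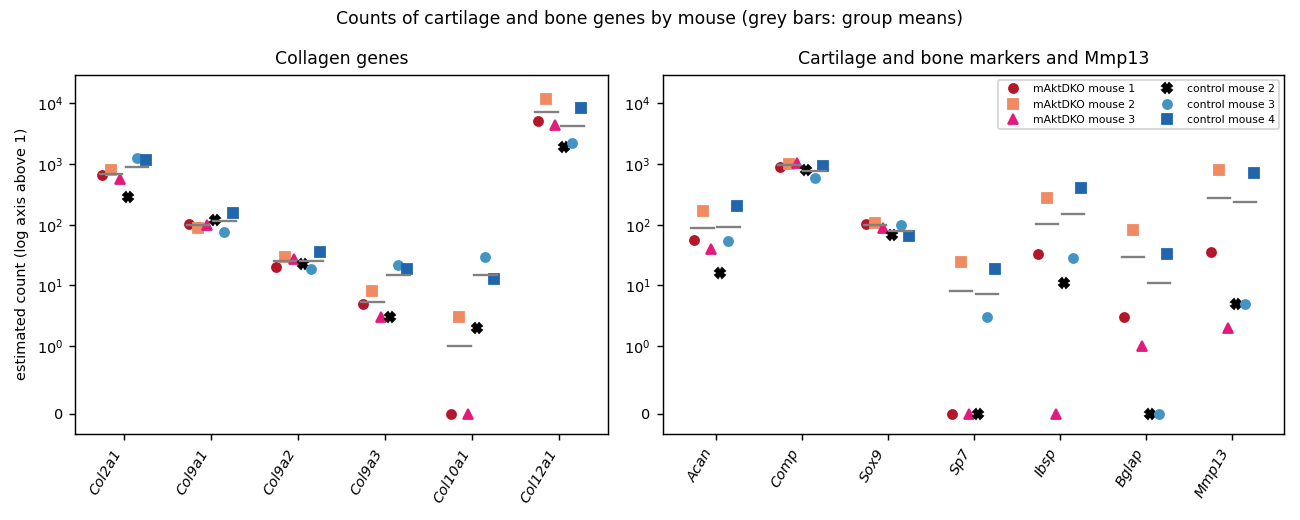
Estimated counts per mouse (log axis above 1) of collagens known from cartilage and of Col12a1 (left) and of cartilage and bone markers with Mmp13 (right), grey bars at the group means. Col2a1, Col9a3 and Col10a1 are highest in control mice 3 and 4, while Acan, Sp7, Ibsp, Bglap and Mmp13 are highest in mAktDKO mouse 2 and control mouse 4.

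Markers of the cells that make fibrillar collagen had higher means in mAktDKO, as did those of several other cell types. All 6 markers of fibro-adipogenic progenitors and fibroblasts were higher, 0 of them called by edgeR's quasi-likelihood test (0.0233% of all genes) and 1, Dcn, by DESeq2 at an adjusted p under 0.01 (1.95% of all genes), with a summed level of 943 to 1067 CPM in mAktDKO against 572 to 783 CPM in control mice. All 6 tenocyte markers were higher, 0 of them called by edgeR and 2, Tnmd and Fmod, by DESeq2, with sums of 1242 to 1780 CPM and 944 to 1252 CPM. Tnmd, a marker of tendon cells, had 72.7, 65.7 and 76.1 CPM in mAktDKO against 29.6, 46.5 and 54.5 CPM in control mice (edgeR adjusted p = 0.077). The 7 markers of fast muscle fibres were all lower, with sums of 86911 to 96266 CPM against 96859 to 105749 CPM. Of these, edgeR called 0 and DESeq2 called 1, Myh1, against the same shares of all genes. At an unadjusted p under 0.05 with edgeR, 5 of the 6 adipocyte markers, 4 fibroblast and 4 tenocyte markers, 2 markers each of macrophages, endothelium, slow fibres and red blood cells, and 1 each of mural, Schwann and satellite cells were higher (11.4% of all genes), while 2 markers of fast fibres and 1 of satellite cells were lower (13.1%). The markers of macrophages, adipocytes and Schwann cells were also 6 of 6 higher in each list and those of red blood cells 5 of 5, with sums of 88.9 to 116, 182 to 323, 287 to 396 and 150 to 320 CPM in mAktDKO against 57.3 to 97.2, 155 to 211, 278 to 311 and 114 to 168 CPM in control mice, so that these sums overlapped. Of these 4 lists edgeR called 0 genes and DESeq2 called 1, Hbb-bs, a beta globin, which had 370, 154 and 146 counts in mAktDKO and 0 in each control mouse. Estimated counts of the globin genes Hba-a1, Hba-a2, Hbb-bs and Hbb-bt included values that were not whole. Reads were thus divided between similar genes, and their levels are uncertain. Hbb-bt had 364, 271 and 142 counts in mAktDKO against 189, 180 and 119 counts in control mice, with overlapping groups. Markers of satellite cells and of slow fibres were 5 of 6 higher, those of endothelium 4 of 6 and those of mural cells 3 of 6, with 0 called by either tool. Their sums were 45.4 to 54.5, 426 to 915, 413 to 487 and 596 to 670 CPM in mAktDKO against 48.0 to 54.6, 363 to 580, 343 to 447 and 550 to 626 CPM in control mice, in that order, and overlapped. Without control mouse 2 the markers of fibroblasts, tenocytes, macrophages, adipocytes, endothelium and slow fibres were 6 of 6 higher. Schwann cells had 5 of 6 higher, red blood cells 4 of 5, satellite cells 4 of 6 and mural cells 3 of 6. Those of fast fibres were 7 of 7 lower. At an unadjusted edgeR p under 0.05 there, fibroblast markers Dcn, Dpt and Cd34 and tenocyte markers Tnmd, Mkx, Fmod and Kera were still higher. So were Adgre1 of macrophages, Lep and Fabp4 of adipocytes, and Hba-a2 and Hbb-bs of red blood cells (9.05% of all genes). No marker of endothelium, slow fibres, mural, Schwann or satellite cells was higher at this level. Myh1, Myh2 and Mylpf of fast fibres and Cdh15 of satellite cells were lower (10.2%). The other red blood cell markers, Hba-a1, Hbb-bt and Alas2, had log2 fold changes of -0.0024, 0.56 and 0.38 there, with unadjusted edgeR p over 0.05. Hba-a1 and Hba-a2 had 1607 and 355 counts in control mouse 3 and 345 and 1495 counts in mAktDKO mouse 3. In the fibroblast list the sums did not overlap and control mouse 2 was the lowest, as it was for type I collagen. Dcn made up most of these sums, with 587, 670 and 699 CPM in mAktDKO against 372, 469 and 477 CPM in control mice. Gene by gene, the groups did not overlap for Pdgfra and Dcn (14.6% of all genes were higher with no overlap). They overlapped for Lum, Dpt, Ly6a and Cd34. The part of these cells in the collagen values was not tested.

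The genes that process, cross-link, bind and degrade collagen gave 0 calls at an adjusted p under 0.01 (0.0233% of all genes) and 0 under 0.05 (1.18%) with edgeR's quasi-likelihood test, while DESeq2 called 1 of them, Ddr2, at 0.01 (1.95% of all genes). At an unadjusted p under 0.05 with edgeR, 3 cross-linking enzymes and 4 receptors were higher. So were 5 genes of hydroxylation and folding and 3 of export and propeptide removal, against 11.4% of all genes. In addition, 1 gene of hydroxylation and 1 of degradation were lower, against 13.1%. Without control mouse 2, Lox, Loxl2, Itga2, Ddr2, Mrc2, Crtap, Ppib, Pcolce and Adamts14 stayed under 0.05 (9.05% of all genes higher). P4ha1, P3h3, P3h4, Loxl4, Lair1 and Pcolce2 did not (edgeR unadjusted p of 0.066 to 0.13). Both lower genes, P4ha2 and Timp4, stayed under it (10.2% of all genes lower). The cross-linking enzymes were 5 of 5 higher in mAktDKO, with a log2 median of 0.54, and of 0.41 without control mouse 2, where they were again 5 of 5 higher. Lox, lysyl oxidase, which starts the cross-links between collagen chains, had 179, 199 and 218 CPM in mAktDKO against 69.8, 111 and 150 CPM in control mice. Every mAktDKO mouse was above every control mouse, with a log2 fold change of 0.85 (standard error 0.23, unadjusted p = 0.0045, edgeR adjusted p = 0.081) and of 0.61 without control mouse 2 (standard error 0.13, edgeR adjusted p = 0.066). Loxl2, a relative that acts on type IV collagen, had 188, 186 and 185 CPM in mAktDKO against 73.1, 132 and 148 CPM in control mice. The groups did not overlap, and the log2 fold change was 0.66 (standard error 0.21, edgeR adjusted p = 0.11) and 0.41 without control mouse 2 (standard error 0.082, edgeR adjusted p = 0.051). Loxl4 had 0.54 (standard error 0.21, edgeR adjusted p = 0.17), and 0.42 without that mouse, with overlapping groups.

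Of the 9 collagen receptors tested, 7 were higher and 2 lower, and the median log2 fold change was 0.34, and 0.26 without control mouse 2. Ddr2, a receptor kinase of fibroblasts that is switched on by fibrillar collagen, had 113, 125 and 116 CPM in mAktDKO against 63.6, 91.8 and 91.3 CPM in control mice. The groups did not overlap, and the log2 fold change was 0.52 (standard error 0.14, edgeR adjusted p = 0.076) and 0.37 without control mouse 2. DESeq2 called Ddr2 (adjusted p = 0.0084). Itga2, an integrin chain that binds type I collagen, had 7.23, 6.65 and 10.01 CPM in mAktDKO against 3.99, 4.96 and 4.99 CPM in control mice. The groups did not overlap there either (log2 fold change 0.77, standard error 0.19, edgeR adjusted p = 0.070, and 0.67 without control mouse 2). Mrc2, which takes up collagen fragments, had 0.41 (edgeR adjusted p = 0.12), and 0.26 without that mouse.

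Of the 17 genes of procollagen hydroxylation, glycosylation and folding, 15 were higher and 2 lower, with a median of 0.19 on the log2 scale. Without control mouse 2, 12 were higher and 5 lower, and the median was again 0.19. Crtap, the cartilage-associated partner of a prolyl hydroxylase, had 23.5, 23.8 and 23.2 CPM in mAktDKO against 12.7, 17.2 and 19.2 CPM in control mice (log2 fold change 0.52, standard error 0.14, edgeR adjusted p = 0.082, and 0.37 without control mouse 2). P4ha2, a catalytic chain of the prolyl 4-hydroxylase that stabilises the helix, had 21.1, 21.1 and 16.7 CPM in mAktDKO against 26.2, 26.6 and 27.6 CPM in control mice. It was 1 of the 2 lower genes of its list, and lower in every mAktDKO mouse than in any control mouse (log2 fold change -0.45, standard error 0.11, edgeR adjusted p = 0.069, and -0.46 without control mouse 2, which lay close to the other controls). Ppib had 0.36 (edgeR adjusted p = 0.15), and 0.22 without that mouse.

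Of the 10 genes of procollagen export and propeptide removal that were tested, 7 were higher and 3 lower, and the median log2 fold change was 0.31, and 0.14 without control mouse 2. Adamts14, a protease that trims the amino-terminal propeptide, had 5.20, 4.19 and 5.14 CPM in mAktDKO against 2.66, 3.72 and 3.40 CPM in control mice, with a log2 fold change of 0.57 (standard error 0.19, edgeR adjusted p = 0.13) and of 0.44 without that mouse. Pcolce and Pcolce2, which enhance removal of the carboxy-terminal propeptide, had 0.50 and 0.30, and 0.26 and 0.21 without it, and in all 3 genes, which are those of the smallest p in their list, the groups did not overlap (14.6% of all genes were higher with no overlap). Of the 10 genes of degradation and its inhibitors that were tested, 7 were higher and 3 lower, with a median of 0.27, and of 0.019 without control mouse 2. Timp2 and Timp3, inhibitors of matrix metalloproteinases, had 0.37 and 0.29, and 0.22 and 0.18 without that mouse. Timp4, made in muscle and heart, had -0.27 (edgeR adjusted p = 0.20), and -0.32 without it.

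**Figure D5:**
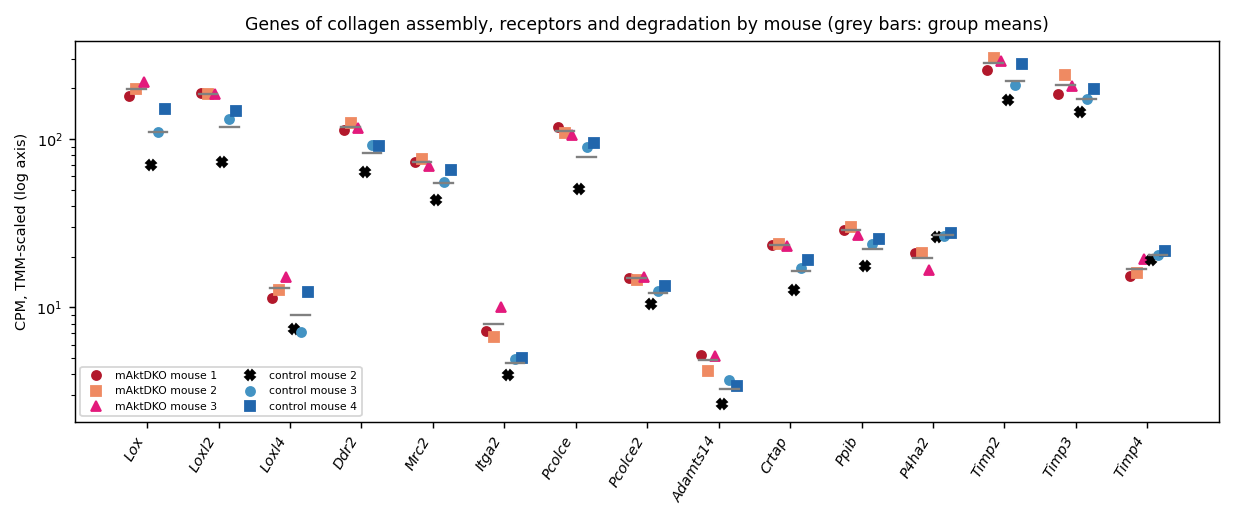
TMM-scaled CPM (log axis) of the genes with the smallest p in each list of collagen assembly, receptors and degradation, by mouse, with grey bars at the group means. For Lox, Loxl2, Ddr2 and Itga2 the mAktDKO mice lie above all control mice, for P4ha2 below them.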

How the data were processed

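EDL RNA of the 6 mice was depleted of ribosomal RNA and sequenced as strand-specific, paired-end libraries. The authors mapped the reads to mm10 with STAR (2.6.1b in the submitters' processing notes) and estimated counts per gene with RSEM 1.3.1. The authors deposited the estimated (expected) counts without scaling. The annotation used is not given in the sources used here. RSEM divides reads among similar genes, and between 3.36% and 4.09% of values per mouse were not whole.

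Counts were rounded, filtered with filterByExpr (minimum count 10), scaled by TMM and tested on all 12892 genes with the quasi-likelihood test of edgeR 4.0.16 in R 4.3.3, and genes passed when p, adjusted by Benjamini-Hochberg over all of them, was under 0.01, the threshold of the study. Standard errors are the log2 fold change divided by the square root of F. Class means of log2 CPM use a prior count of 2. Values in which groups do not overlap were counted over the same genes. Coordinates and principal transcript lengths are from the GENCODE annotation of GRCm38, and promoters from RefSeq. The fit was also run on counts simulated from its own fitted values, with no outlying library. Such a run checks the code and cannot show how the fit behaves with a library like control mouse 2.

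The mAktDKO columns carry the labelled numbers. The control columns are numbered 2 to 4 and stand for the group. P-values measure the spread between these mice. Alternatives were other scalings, DESeq2 1.42.0, other filters, an adjusted p under 0.05, and leaving out each mouse. A fit without mAktDKO mouse 2 and control mouse 4 was added after the values were seen.

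The collagen genes, their classes, the gene and marker lists and the rule for named genes were chosen with earlier results of these data known. Named were the 4 most abundant genes of each class, the 3 with the smallest p in each direction, those that changed sign without control mouse 2 (the 3 largest moves in full), the 3 with the smallest p in each list, and Akt1 and Akt2. Col11a2, Col9a3, Col10a1, Ibsp, Mmp13, Tnmd, Dcn, Fmod, Myh1 and Hbb-bs were named after their values were seen. The same holds for P4ha1, P3h3, P3h4 and Lair1, for the other cell type markers picked out singly, and for any other collagen gene outside this rule, such as Col19a1 and Col20a1.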

Additional observations from a re-analysis of the deposited data

How the results depend on the processing

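The count of collagen genes called, 0 with all mice, was 0 to 1 when a mouse was left out in turn, the 1 being Col2a1 without control mouse 2, 1 with DESeq2 without control mouse 2, and 0 with library totals without that mouse. The count of collagen genes higher in mAktDKO, 35, was 21 to 35 when a mouse was left out, 21 with DESeq2 without control mouse 2 and 31 with library totals without that mouse. Genes of collagen assembly, receptors and degradation called, 0 in the edgeR fit and when any mouse was left out, were 1 with DESeq2 (Ddr2) and 3 with DESeq2 without control mouse 2 (Ddr2, Lox and Loxl2). Leaving out a mouse moved the median log2 fold change of the fibrillar genes from 0.26 to between -0.039 (control mouse 2, or 0.085 with library totals) and 0.57 (control mouse 4), and that of the FACIT genes from 0.18 to between -0.030 (mAktDKO mouse 2) and 0.24. The median of the type IV genes moved from 0.19 to between 0.051 (control mouse 2) and 0.35 (control mouse 3), that of the other types from 0.28 to between 0.059 (control mouse 2) and 0.57 (control mouse 4), and that of all 40 from 0.24 to between 0.043 (control mouse 2) and 0.50 (control mouse 4).

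Reversed directions over the mice left out, followed by DESeq2 without control mouse 2, were -0.070 to 0.33 and -0.077 for Col4a1, -0.088 to 0.22 and -0.095 for Col4a2, -0.061 to 0.54 and -0.069 for Col3a1, -0.16 to 0.50 and -0.17 for Col5a1, -0.0075 to 0.69 and -0.015 for Col6a3, -0.080 to 0.57 and -0.056 for Col6a5, and -0.18 to 0.88 and -0.19 for Col16a1. Without control mouse 2 and with library totals in place of TMM, Col16a1 had -0.051 and Col5a1 -0.031. In that fit Col4a1, Col4a2, Col3a1, Col6a3 and Col6a5 kept the direction seen with all mice (0.054, 0.036, 0.069, 0.12 and 0.070). The other genes that changed sign under TMM are not given singly. Col22a1 had 0.081 with library totals and 0.11 with library totals without control mouse 2. Library totals moved the median of all genes from 0.017 to 0.16, and to 0.14 without control mouse 2. Akt2 stayed lower in each fit but missed the threshold without mAktDKO mouse 1, 2 or 3 (adjusted p = 0.021, 0.019 and 0.016, edgeR) and without mAktDKO mouse 2 and control mouse 4 (0.031). The causes were not tested.

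No paired analysis was possible because numbers 2 to 4 of the control columns do not match numbers 1 to 3 of the samples in the labels. The depth limits Col10a1, Col9a3, Col6a4 and Col17a1, all at or below 29 counts in each mouse.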

Other observations

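The counts of both type I chains kept a nearly fixed ratio while their levels ranged over 3.20-fold (Col1a1) and 3.34-fold (Col1a2) between mice. The ratio of Col1a1 to Col1a2 counts was 1.64, 1.52 and 1.59 in the mAktDKO mice and 1.66, 1.66 and 1.71 in the control mice. It was lower in every mAktDKO mouse than in any control mouse. This pair was singled out after its values were seen among several ratios, and the others overlapped between groups. For Col4a1 to Col4a2 the ratio was 1.66, 1.58 and 1.60 in the mAktDKO mice and 1.43, 1.64 and 1.55 in the control mice, and for Col1a1 to Col3a1 it ranged more widely, from 4.42 to 9.36, with the highest value in mAktDKO mouse 3.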
